A study of Mus musculus with 5 samples.

Results

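The collagen genes of the mouse were examined for acetylation of histone H3 at lysine 9 (H3K9ac) in STHdh Q111 cells. Members were the protein-coding genes whose symbol reads Col, a number, a and a number, and 43 of the 22380 protein-coding genes of the GENCODE vM1 annotation of mm9 met this rule. Peaks were taken as collagen peaks if centred no more than 10 kb from an annotated transcript start of a member, and 52 of 34286 DOP-treated peaks and 46 of 33355 untreated peaks did so. A peak near a pair of collagen genes was counted once. Distances are given to the nearest annotated start of a gene, which can lie inside the gene, and the 5′-most start is named where it matters. In this annotation no gene has the symbol Col26a1, which is therefore not a member.

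STHdh Q111 cells are a conditionally immortalized line of mouse striatal progenitor cells, labelled C57BL/6, that is homozygous for mutant huntingtin with an expanded CAG repeat. Both groups shared this genotype and were kept in serum-free medium for 24 h. The treated cells (2 samples) received 4 mM DOP, which is 4-deoxypyridoxine hydrochloride, an inhibitor of sphingosine-1-phosphate lyase, and the untreated cells (2 samples) received the vehicle DPBS. Wild-type Q7 cells and the 1 IgG sample were not analysed here. The data are 2 peak lists, 1 for each condition, in which every peak has a called position and a score that has no stated definition. The lists carry no replicates and the depth per sample is not known, so every difference given here is a difference between 2 lists with no replicate check and no test. Scores were therefore expressed as percentiles of their own list, in which the weakest peak is near 0 and the strongest near 100.

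Collagens are secreted or membrane-bound proteins whose chains wind into a helix, and the chains of each type are encoded by separate genes. Fibrillar collagens form the ropes of connective tissue, network collagens form basement membranes, and other classes decorate fibrils or anchor cells. In brain, collagens are found mainly in vessels and meninges and in basement membranes, and fibroblast-like cells are a rich source. H3K9ac is a mark of active promoters and is usually strongest just downstream of the transcript start.

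The label of the cells was set beside marker genes. Of 7 neural progenitor markers 4 had a DOP-treated and 3 an untreated peak, with peaks of both lists at Vim, Notch1 and Msi1 and none at Nes, Sox2 or Pax6. Over all protein-coding genes the shares with a peak were 57.7% and 56.9%, so the count for these markers was not above that of genes at large. Among 7 striatal lineage markers, 5 and 4 had peaks. Of 12 fibroblast or mesenchymal markers 7 had peaks in each list, among them Twist1, Twist2, Prrx1, Pdgfra and Pdgfrb, whereas Dcn, Lum, Thy1, Tagln and Acta2 had none, and this count too was close to the share over all genes. Markers of mature striatal neurons (1 of 7 in each list, at Ppp1r1b), astrocytes (0 of 3) and endothelial cells (0 of 3) were largely without peaks. For oligodendrocytes 1 and 0 of 5 had peaks, and the 1 microglial marker of 4 with peaks, Aif1, had none nearest to its own start. The part of these markers in the collagen values was not tested.

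H3K9ac covered about as many collagen genes as genes at large. A DOP-treated peak lay near 26 of 43 collagen genes (60.5%), beside 57.7% of all protein-coding genes, and an untreated peak lay near 22 (51.2%), beside 56.9% of all. Counting only peaks that lay nearer to the collagen gene than to any other protein-coding gene lowered these numbers to 20 (46.5%) and 19 (44.2%), beside 52.3% and 51.3% of all genes. Both lists had peaks near 22 collagen genes, and 17 genes had none in either list. The collagen genes with a peak had a median of 2 peaks with DOP and 1.5 without, against 3 over all genes with a peak in either list. Against all peaks of their list, their peaks were of middling strength, with a median score percentile of 44.2 with DOP and 50.9 without. For the peaks nearest to a collagen start alone, the medians were 40.2 and 50.9. A comparison with only the peaks near starts of other genes was not made.

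The strongest peaks at collagen starts belonged to Col5a1, Col6a1, Col1a1, Col5a2, Col4a2 and Col6a2. The 250 bases upstream of the 5′-most start are shown for 3 of these, because they mark how unlike each other the marked promoters are. Sequences are from the NCBIM37 assembly (mm9) and run 5′ to 3′ on the strand of the gene. Capitals mark 3 promoter motifs on either strand. The GC box was searched as GGGCGG or its reverse complement. The CCAAT box was searched by the letters of its name. The TATA box was searched as TATAAA. Matches of different motifs may share bases.
Col5a1 (chr2:27741695-27741944, plus strand): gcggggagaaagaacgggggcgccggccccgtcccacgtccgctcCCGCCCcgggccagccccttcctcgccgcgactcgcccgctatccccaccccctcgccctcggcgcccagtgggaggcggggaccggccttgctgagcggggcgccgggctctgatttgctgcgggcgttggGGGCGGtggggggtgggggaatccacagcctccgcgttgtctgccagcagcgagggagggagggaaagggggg
Col1a1 (chr11:94797288-94797537, plus strand): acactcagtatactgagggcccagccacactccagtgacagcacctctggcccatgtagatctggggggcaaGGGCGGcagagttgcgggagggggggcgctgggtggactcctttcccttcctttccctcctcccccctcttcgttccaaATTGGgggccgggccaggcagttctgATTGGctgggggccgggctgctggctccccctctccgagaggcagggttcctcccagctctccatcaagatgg
Col6a1 (chr10:76188914-76189163, minus strand): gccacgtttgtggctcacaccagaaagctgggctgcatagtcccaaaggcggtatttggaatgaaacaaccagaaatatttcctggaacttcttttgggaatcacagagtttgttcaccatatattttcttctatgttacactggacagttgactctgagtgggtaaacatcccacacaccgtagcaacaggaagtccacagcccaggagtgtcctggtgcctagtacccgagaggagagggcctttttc
The Col5a1 promoter is 76.4% G and C and holds 2 GC boxes, that of Col1a1 is 64.8% with 1 GC box and 2 CCAAT boxes, and that of Col6a1 is 48% with none of the 3 motifs.

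**Figure D1:**
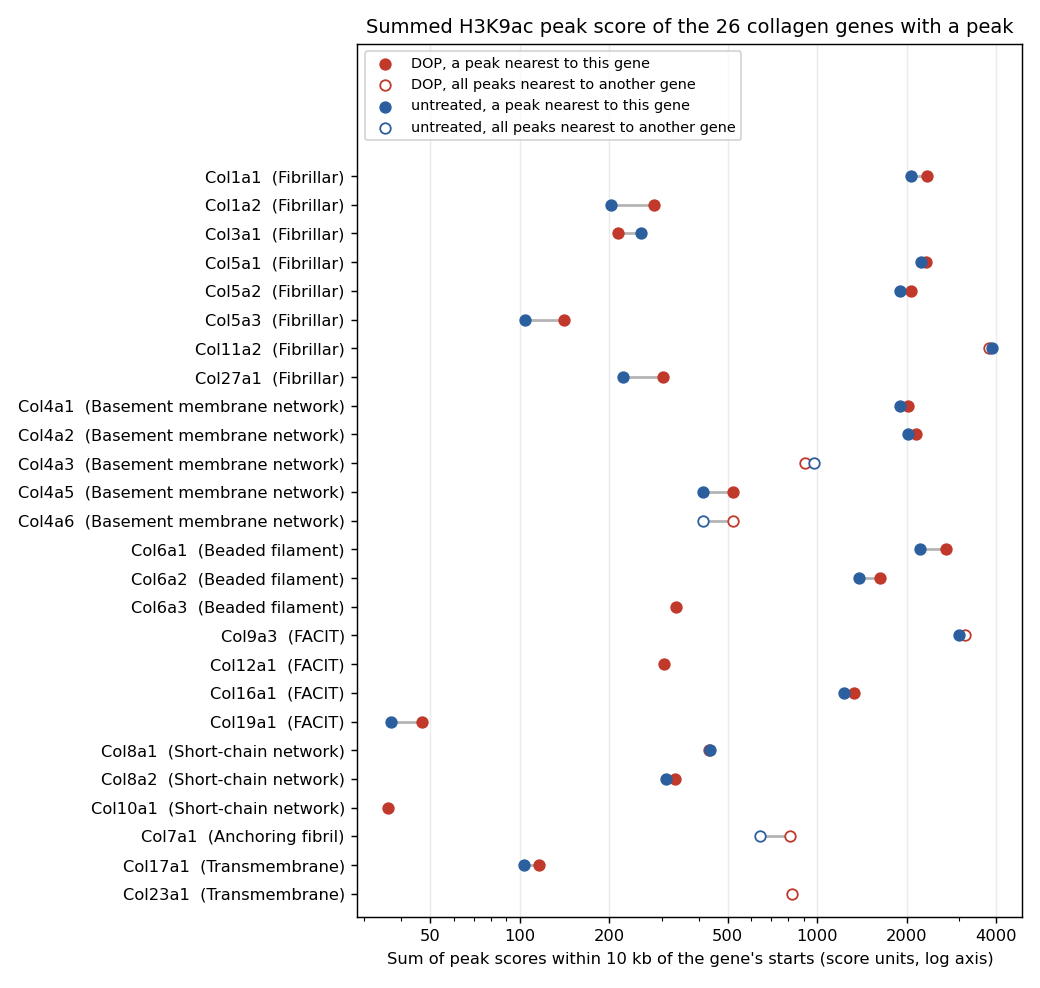
Sum of the scores of all peaks within 10 kb of the starts (score units, log axis) for the 26 collagen genes with a peak, by class, in the DOP-treated (red) and untreated (blue) lists, where open circles mark genes whose peaks in that list all lay nearest to another gene. The sums run from 36 at Col10a1 to 3873 at Col11a2, and the points of a gene lie close together compared with the spread between genes.

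Fibrillar collagens, the largest class, held the highest number of marked genes. Of 11 genes, 8 had a peak in each list, and 7 (DOP-treated) and 8 (untreated) had one nearest to themselves. Col5a1 (chromosome 2, 27741945 to 27895034), a chain of type V collagen, which helps to set the diameter of fibrils, had 2 peaks in each list. Their scores were 1380.8 and 934.2 with DOP and 1484.7 and 740.3 without, at 237 and 572 bp and at 285 and 607 bp downstream of the start. The stronger of them, in the 5′ UTR, stood at percentiles 95.3 and 96.3 of its list, the highest of any peak nearest to a collagen start in the untreated list. Col5a2, its partner chain, had 3 peaks in each list, with scores of 962.3, 891.7 and 204 with DOP and 857.8, 836.2 and 198 without. The minor chain Col5a3 had 1 weak peak in each list, with scores of 141 and 104.

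The chains of type I collagen, the main fibrillar collagen of bone and skin, were unequally marked. Col1a1 (chromosome 11, 94797538 to 94814356) had 5 peaks in each list, all overlapping peaks of the other list. With DOP their scores were 1085, 370, 347, 311 and 216, and without DOP 539, 514.2, 509.4, 262.5 and 238. Close to the 5′-most start, the DOP-treated peak of 1085, at 323 bp, overlapped the untreated peaks of 509.4 and 514.2, at 260 and 396 bp. Farther into the gene, the DOP-treated peaks of 370 and 311, at 1504 and 1712 bp, overlapped the untreated peak of 539, at 1660 bp. The lists thus divided each of these regions into peaks differently. The highest peaks, at percentiles 89.6 and 63.7, lay in different regions. The sums over all 5 peaks, 2329 and 2063.1, differed less than the highest scores did. Col1a2 (chromosome 6, 4454814 to 4491543) had 1 intronic peak in both lists, with scores of 201 and 202, and 1 further peak of score 81, 1621 bp upstream, in the DOP-treated list only. Col3a1, the type III chain of vessels and skin, had 1 peak in each list, with scores of 214 and 256. Col27a1, a fibrillar collagen of cartilage, had a peak in the 5′ UTR with scores of 265 and 223 and a weak DOP-only peak of score 37 in a coding exon, 109934 bp downstream of its 5′-most start.

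Col11a2, a chain of the type XI collagen of cartilage, had the largest summed score of all members, but the strong peaks were not at its start. All 4 DOP-treated peaks and 4 of the 5 untreated peaks lay 6956 to 8581 bp upstream of it, within 225 bp of the starts of Rxrb and Slc39a7. The only peak nearest to Col11a2 itself was an untreated one of score 23 (percentile 0.288), in an intron 12990 bp downstream of the 5′-most start. Col2a1, Col11a1 and Col24a1, the remaining fibrillar genes, had no peak.

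**Figure D2:**
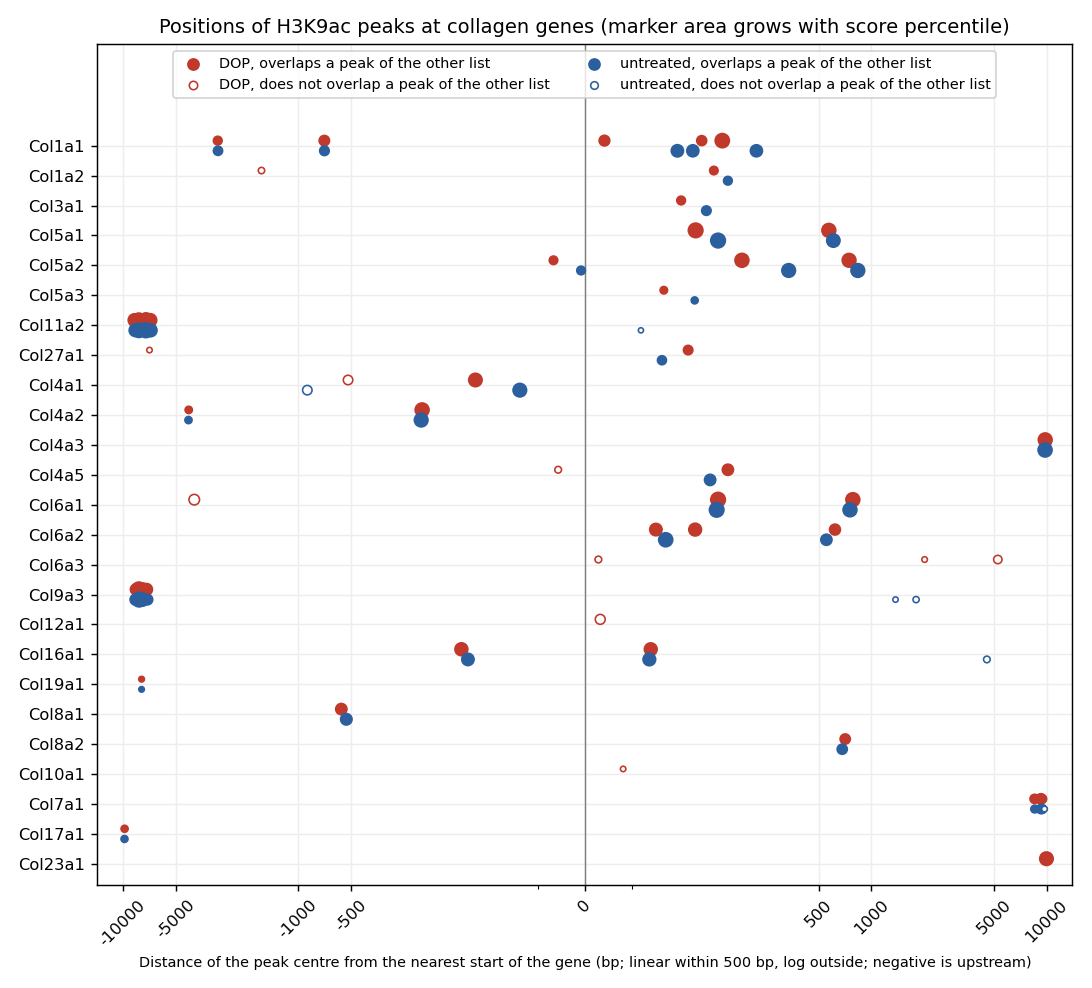
Distance of each peak centre from the nearest start of its collagen gene (bp, linear close to the start and logarithmic outside, upstream negative) in the DOP-treated (red) and untreated (blue) lists, where filled circles overlap a peak of the other list and larger circles have a higher score percentile. Each peak is drawn once, at the closest collagen gene, so Col4a6 has no row, and most open circles are small.

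Basement membrane collagens are encoded by 6 genes in 3 head-to-head pairs, and the pairs differed. The starts of Col4a1 and Col4a2, the chains found in nearly every basement membrane, are 21 bp apart on chromosome 8 (11312826 and 11312805), and 3 peaks in each list lay near both. With DOP the scores were 960, 793.7 and 267.3, and without DOP 840, 809 and 255. The strongest lay 348 and 350 bp from the Col4a2 start, on the side of Col4a1, at percentiles 85.7 and 82. Peaks lay on both sides of the common start region, and a peak cannot be given to 1 gene of the pair. A further peak, 4214 and 4228 bp upstream of the nearest Col4a2 start and within the gene, scored 129 and 112. The weakest of the 3 common peaks did not overlap between lists, with centres 368 bp apart.

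Col4a5 and Col4a6 are 1309 bp apart on chromosome X (137909928 and 137908619). The main peak lay 306 and 268 bp downstream of the Col4a5 start, in its 5′ UTR, with scores of 425.3 and 413. The DOP-treated list held a further peak of score 97.7 at 57 bp upstream of Col4a5. No peak was nearest to Col4a6, so its values repeat those of its neighbour. Col4a3 and Col4a4, chains of the kidney filter, have starts 72 bp apart on chromosome 1 and shared 0 peaks. The 1 peak near Col4a3 in each list (scores 908.4 and 975.2) lay 161 and 143 bp from the start of Mff, a gene of mitochondrial fission, and the closest peaks to Col4a4 were 138260 and 138242 bp away. Within the basement membrane class the marked starts were therefore those of Col4a1, Col4a2 and Col4a5.

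Beaded filament collagens, the chains of type VI collagen that form microfilaments around many cells, held 9 DOP-treated and 4 untreated peaks, the widest gap of any class. Of the 6 genes, 3 and 2 had peaks, all of them nearest to the collagen gene. Col6a1 (chromosome 10, 76171537 to 76188913) had peaks of score 1383.9 and 950.1 with DOP and 1302.5 and 911.5 without, 282 to 784 bp downstream of the start. The stronger peak stood at percentiles 95.3 and 94.3. A further peak of score 364 (percentile 43.9), 3919 bp upstream, was in the DOP-treated list only, and the closest untreated centre was 4325 bp away. Col6a2 (chromosome 10, 76058507 to 76086375) had peaks of score 643.5, 581 and 397.4 with DOP and 981.3 and 402.7 without. The stronger untreated peak, at 173 bp and percentile 87.3, lay between the DOP-treated peaks at 152 and 236 bp (percentiles 65.3 and 69.8), all in an intron, so that the sums of 1621.9 and 1384 were closer than the highest scores.

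Col6a3, which supplies the remaining chain of the same trimer, had 3 peaks with DOP and none without. Their scores were 98 at 29 bp, 44 at 2012 bp and 192 at 5263 bp downstream of the nearest start, all in introns, at percentiles 9.85, 2.85 and 22.4. From the 5′-most start these peaks lay 207, 43443 and 5441 bp downstream, so the weakest was far inside the gene. The closest untreated centre was at least 53429 bp from each of them. Col6a4, Col6a5 and Col6a6 had no peak in either list. The type VI genes of the DOP-treated list thus fell into a strongly marked pair, a weakly marked partner and 3 unmarked genes.

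Fibril-associated collagens (FACIT), which bind to the surface of fibrils, had peaks near 4 and 3 of 9 genes. Col12a1 (chromosome 9, 79446798 to 79566638), the type XII chain of tendon and ligament, had 1 DOP-treated peak in its 5′ UTR, 33 bp from the nearest and 370 bp from the 5′-most start, with a score of 305 at percentile 37. The closest untreated centre was 41005 bp away. In the whole DOP-treated list, 29 of 21608 peaks of at least this score (0.134%) lay as far from the nearest untreated peak, and in the reverse direction 23 of 20420 (0.113%). When a distance of over 10 kb was asked for instead, the shares were 0.255% and 0.274%, so peaks of at least this score were isolated about as often in both lists. For the upstream peak of Col6a1 the shares as far from the other list were 0.26% with DOP and 0.344% without, and for the strongest intron peak of Col6a3 0.229% and 0.142%. With over 10 kb asked for, the shares were 0.197% and 0.244% at the score of the Col6a1 peak. At the lower score of the Col6a3 peak they were 0.707% and 0.453%, and thus higher with DOP. The peaks of Col12a1, Col6a1 and Col6a3 were singled out after their values were seen. Col16a1 had a pair of peaks around its start in each list, with scores of 675.4 and 652.6 with DOP and 544 and 600 without, while a further untreated peak, of score 85, was nearest to Pef1. Col19a1 had 1 peak of score 47 and 37, at 7826 and 7828 bp upstream.

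Col9a3, a chain of the type IX collagen of cartilage, had the highest single peak near any member in the DOP-treated list, with scores of 1613.6 with DOP and 1475.7 without (percentiles 97.5 and 96.2), but that peak lay 218 and 245 bp from the start of Ogfr, the opioid growth factor receptor. The untreated list alone had peaks nearest to Col9a3 itself, of score 64.5 and 31.5, in an intron. Col9a1, Col9a2, Col14a1, Col20a1 and Col22a1 had no peak.

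Among the smaller classes, all 3 short-chain genes had a peak with DOP and 2 without. Col8a1 and Col8a2, network collagens of vessel walls and cornea, had 1 peak each per list, with scores of 432 and 435 and of 332 and 310, which were almost equal between lists. The Col8a2 peak lay beside a start inside the gene, 14446 and 14419 bp from the 5′-most one. Col10a1, the collagen of hypertrophic cartilage, had 1 DOP-only peak of score 36 (percentile 1.81), 82 bp from its start and within an intron of the overlapping gene Nt5dc1. Col7a1, the anchoring fibril collagen of skin, had 3 and 4 peaks, all nearest to Pfkfb4. Of 4 transmembrane collagens, Col17a1 of the hemidesmosome had a peak of score 116 and 103 within the gene, at 32716 and 32704 bp downstream of its 5′-most start. Col23a1 met the rule in the DOP-treated list only, but its peak of score 820 was nearest to Agxt2l2 and overlapped an untreated peak 74 bp away. These centres lay 9967 and 10041 bp from the Col23a1 start, on either side of the limit of 10 kb. The transmembrane genes Col13a1 and Col25a1, the multiplexins Col15a1 and Col18a1, which release endostatin-like fragments, and Col28a1 had no peak.

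**Figure D3:**
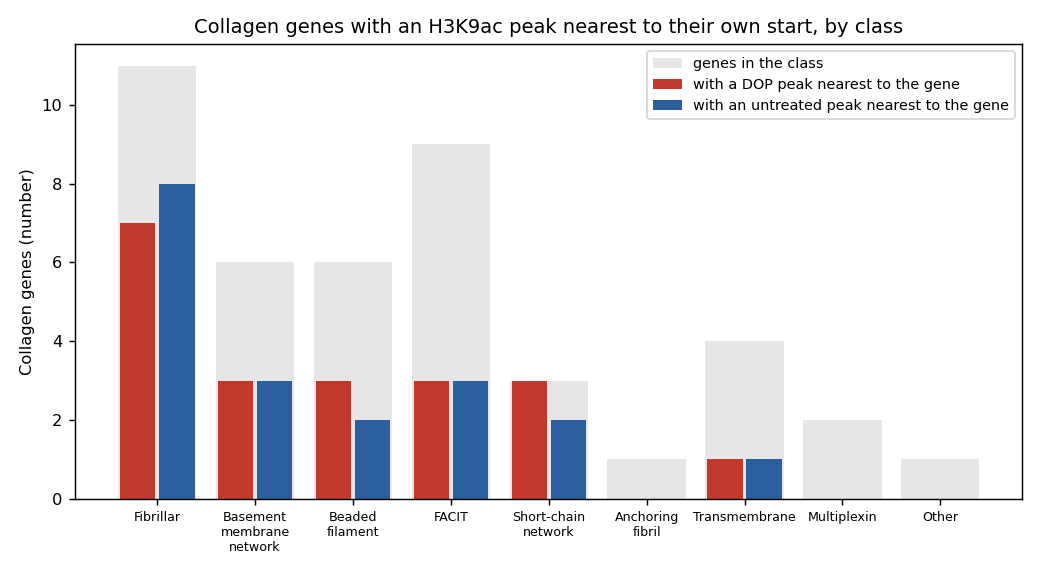
Number of collagen genes per class (grey) and number with a DOP-treated (red) or untreated (blue) peak nearest to the gene. Fibrillar collagens, the largest class, had the highest number with 7 and 8 of 11, while the anchoring fibril, multiplexin and remaining genes had none. Classes differ in size, and by share the short-chain genes were higher with DOP (3 of 3).

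Presence of a peak differed between lists at few collagen genes. Peaks were near Col6a3, Col12a1, Col10a1 and Col23a1 in the DOP-treated list only, which makes 4 of 43, beside 2.39% of all genes. No collagen gene (0) had peaks in the untreated list only, beside 1.62% of all genes. This split depended on how peaks were assigned: with peaks nearest to the gene itself, 3 genes were DOP-only (Col6a3, Col12a1, Col10a1) and 2 untreated-only (Col11a2, Col9a3), beside 2.83% and 1.88% of all genes. By this count the peaks of the untreated-only genes scored at most 64.5, and of the 3 DOP-only genes Col12a1 and Col6a3 had a peak above 100. Of the 26 collagen genes with a peak, 10 had more peaks with DOP than without, 4 had fewer and 12 had equal numbers. Over all genes with a peak, 32.5% had more and 28.5% fewer. The 10 and 4 are not all separate differences. Col4a5 and Col4a6 shared the same additional DOP-treated peak, and the Col23a1 peak overlapped an untreated one just past 10 kb. At Col6a2 the lists divided the same region differently. The additional untreated peaks of Col7a1 and Col16a1 were nearest to Pfkfb4 and Pef1.

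Peaks that did not overlap any peak of the other list numbered 10 of 52 with DOP (19.2%) and 6 of 46 without (13.0%), beside 20% and 16.7% of all peaks. They were weak, with a median percentile of 9.83 and 4.82. Those nearest to a collagen start were 10 of 39 and 4 of 32. The DOP-only regions at Col6a3 and Col6a1 are shown because they hold DOP-only peaks far from any untreated centre, and were picked after these values were seen. For Col6a3 these are the 250 bases upstream of the start, next to the start peak, and for both genes the 200 bp of the strongest DOP-only peak, all on the strand of the gene and with the same capitals.
Col6a3 promoter (chr1:92740530-92740779, minus strand): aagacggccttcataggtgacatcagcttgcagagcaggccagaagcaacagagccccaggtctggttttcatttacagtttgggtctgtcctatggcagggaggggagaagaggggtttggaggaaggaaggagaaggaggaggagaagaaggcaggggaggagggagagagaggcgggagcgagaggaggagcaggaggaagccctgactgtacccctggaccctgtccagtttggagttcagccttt
Col6a3 intron peak (chr1:92734989-92735188, minus strand): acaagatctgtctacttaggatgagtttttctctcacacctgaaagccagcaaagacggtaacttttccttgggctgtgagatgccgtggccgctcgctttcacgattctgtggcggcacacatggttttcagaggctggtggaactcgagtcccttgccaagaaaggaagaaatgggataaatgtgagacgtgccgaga
Col6a1 upstream peak (chr10:76192733-76192932, minus strand): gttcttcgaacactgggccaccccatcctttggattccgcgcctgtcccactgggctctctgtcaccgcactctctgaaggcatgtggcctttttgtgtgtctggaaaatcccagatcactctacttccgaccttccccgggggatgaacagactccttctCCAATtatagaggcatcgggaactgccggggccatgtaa
The Col6a3 promoter and intron peak hold none of the motifs, and the Col6a1 upstream peak holds 1 CCAAT box.

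The peaks of the collagen genes lay mostly at their starts, and somewhat more loosely than peaks in general. Of peaks nearest to a collagen start, 30 of 39 (76.9%) with DOP and 26 of 32 (81.2%) without lay within 1 kb of it, against 86.9% and 87.7% of all peaks within 10 kb of a start. Downstream of the nearest start lay 61.5% and 65.6%, against 70.9% and 72.8% of all. A peak upstream of a start inside a gene can still lie within that gene. Only 11 of the 39 and 8 of the 32 lay upstream of the collagen gene itself. Introns held 19 of the 39 and 20 of the 32, and the share in introns over all peaks was not counted.

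Summed scores of the collagen genes differed by less than 1.5-fold between the lists. For genes with peaks in both, the log2 ratio of the summed score with DOP to that without was centred on its median over all 12375 such genes, which was 0.10 before centring. None of the 22 collagen genes was at least 1.5-fold higher (0) or lower (0), beside 3.83% and 2.19% of all genes. A count of 0 among 22 genes is near these shares. The centred log2 ratios ran from −0.36 to 0.38 with a median of 0.04, and the SD over all genes was 0.33. Of the 22, 13 lay above 0 and 9 below after centring, whereas 18 and 4 did so before centring, where 68.1% of all genes lay above 0. The 22 values are not all separate measurements. Col4a5 and Col4a6 had the same peaks, and Col4a1 and Col4a2 shared 3 in each list. Col4a6, Col7a1 and Col4a3 had no peak nearest to themselves. Among the 17 genes with a peak nearest to themselves in both lists, 11 lay above 0 and the median was 0.07. The largest increases were at Col1a2 (0.38), Col5a3 (0.34), Col27a1 (0.34) and Col19a1 (0.24), whose summed scores were 302 or less in either list. At Col1a2 and Col27a1 the sum with DOP included a DOP-only peak, of score 81 and 37. Their peaks found in both lists scored 201 with DOP and 202 without at Col1a2, and 265 and 223 at Col27a1. The largest decreases were at Col3a1 (−0.36), Col4a3 (−0.20), Col11a2 (−0.14) and Col8a1 (−0.11), of which Col4a3 and Col11a2 rested on peaks of neighbouring genes. For the most strongly marked collagens the centred log2 ratios were −0.05 at Col5a1, 0.07 at Col1a1, 0.18 at Col6a1 and 0.13 at Col6a2. By the highest score instead of the sum, 1 gene was at least 1.5-fold higher and 1 lower, which were Col1a1 and Col6a2, where the lists divided the same regions into peaks differently.

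**Figure D4:**
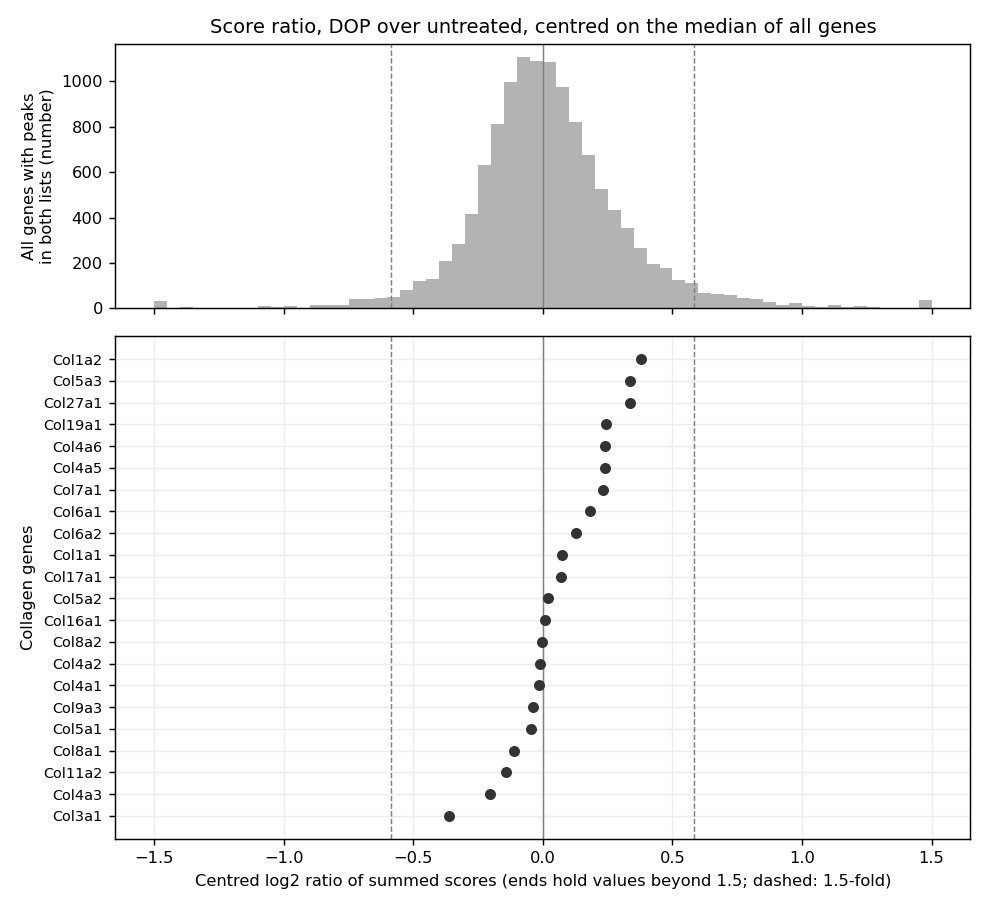
Centred log2 ratio of summed scores, DOP-treated over untreated, as a histogram of the 12375 genes with peaks in both lists (top, number of genes per bin of 0.05, end bins hold values beyond 1.5) and for the 22 collagen genes (bottom). All collagen genes lay between the dashed lines of 1.5-fold, from −0.36 at Col3a1 to 0.38 at Col1a2.

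Promoter composition of marked and unmarked collagen genes overlapped widely, and no test was run. In the 250 bases upstream of the 5′-most start, the median GC content was 59.2% over the 43 genes and 54% over all protein-coding genes, and the CpG ratio (observed over expected) was 0.455 and 0.496. The 22 genes with their own peak in at least 1 list had a median CpG ratio of 0.461, and the 21 others 0.43. The GC box letters were in 22 of 43 collagen promoters (51.2%) and 39.6% of all, CCAAT in 17 (39.5%) and 35.0%, and TATAAA in 5 (11.6%) and 12.3%, with both strands searched. Marked genes held the GC box in 10 of 22 cases and unmarked genes in 12 of 21. A gene counted as marked with a peak nearest to any of its starts, which need not lie near the 5′-most one. At Col17a1, Col8a2 and Col11a2, for example, the only own peaks lay at least 32704, 14419 and 12990 bp downstream of it. The groups are thus not acetylated and unacetylated promoters. Over 1000 upstream bases the groups lay farther apart, with a median CpG ratio of 0.382 in marked and 0.301 in unmarked genes, the GC box in 50% and 71.4%, and TATAAA in 50% and 28.6%. All promoters of that length held the GC box in 48.1% and TATAAA in 46.0%. In the 250 bases, 15 collagen promoters had a CpG ratio at or above the median of all genes, 9 of marked and 6 of unmarked genes. As single cases, Col3a1, which was marked, had a GC content of 35.2% and no CpG. The CpG-rich promoters of Col25a1 (ratio 0.933) and Col13a1 (0.812) had no peak, whereas that of Col4a1 (0.897) did. A match of letters describes the sequence only.

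**Figure D5:**
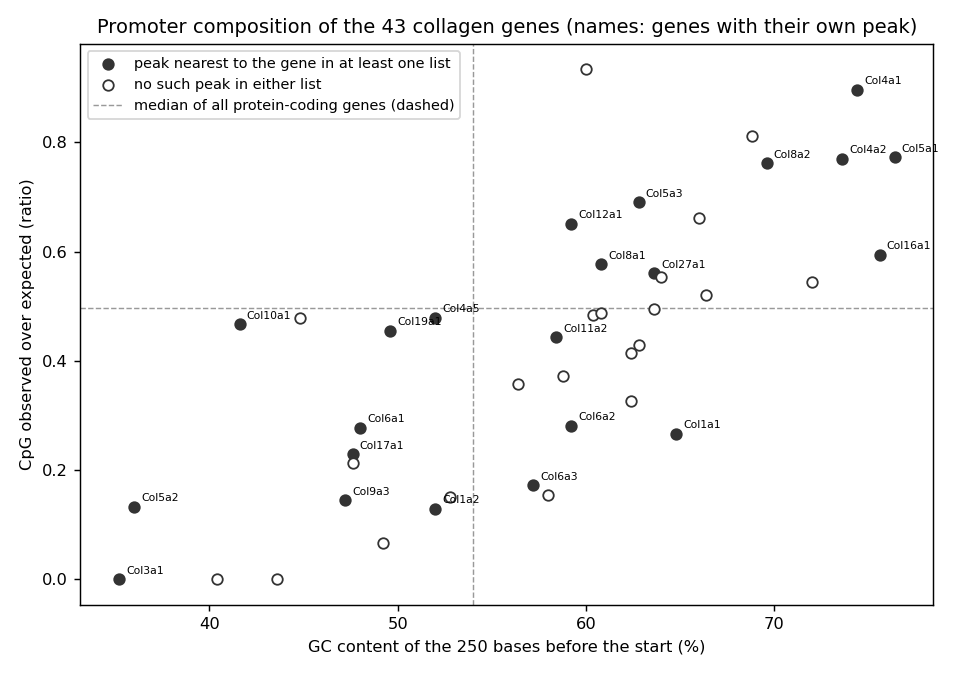
GC content (%) and CpG observed over expected (ratio) of the 250 bases upstream of the 5′-most start of the 43 collagen genes. Points are filled where a peak of at least 1 list was nearest to any start of the gene (22 genes, named). They are open where none was (21 genes), and dashed lines mark the medians of all genes. Filled and open points overlap over most of the range.

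Most of the genes listed for building, cutting, binding and regulating collagen were marked, but the lists differed. The modifying, folding and regulating genes were nearly all marked. Receptors (5 of 9) and fibril partners (3 of 6) were near the share over all genes. Of 66 annotated genes in 8 lists, 51 had a DOP-treated and 52 an untreated peak, beside the 26 and 22 of 43 collagen genes and 57.7% and 56.9% of all protein-coding genes. Peaks nearest to the gene itself were at 47 of the 66 with DOP and 47 without, beside 52.3% and 51.3% of all genes. Short lists leave these shares imprecise. For the enzymes that modify prolines and lysines 13 and 14 of 14 had peaks, led by P4ha1 (percentiles 98.2 and 95.4), P4hb (96.2 and 96.9), and by Plod1. All 5 folding and secretion genes had peaks, among them Ctage5, Sec23a and the collagen chaperone Serpinh1 (95.3 and 94.0). Propeptide cleavage had 5 of 8, led by Bmp1, Pcolce and Adamts14, and cross-linking 4 of 5, led by Loxl1 (97.3 and 96.6), Loxl3 and Loxl4. Of the receptors 5 of 9 had peaks, led by the integrin chain Itgb1 (96.1 and 94.1), Itga10 and Ddr2, although the peaks near Itga10 were nearest to another gene, as were those near Loxl3 but for 1 DOP-treated peak.

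Degradation genes, a list that includes the inhibitors Timp1, Timp2 and Timp3, had peaks at 6 of 9. They were led by Timp2 (88.0 and 98.9), Mmp14 (95.2 and 97.1) and Timp3 (72.4 and 78.2), while the enzymes Mmp8, Mmp13 and Ctsk had none. Fibril partners had peaks at 3 of 6, namely Sparc (94.8 and 96.4), Bgn and Fn1, although the peaks near Fn1 were all nearest to another gene. All 10 regulators, most of them in transforming growth factor signalling, had peaks, led by Tgfbr2 (98.8 and 97.0), Smad3 and Smad4. Summed scores could be compared at the 51 of these pathway genes that had peaks both with and without DOP. Of the 51, 5 were at least 1.5-fold higher with DOP and 2 lower, beside 3.83% and 2.19% of all genes with peaks in both lists. Named after their values were seen, the higher ones were Timp2 (log2 ratio 0.97), Timp3 (0.79), Mmp9 (0.77), Tgfb3 (0.67) and Bgn (0.59), and the lower ones P4ha3 (−1.13) and Ppib (−0.71). Timp2, an inhibitor of matrix metalloproteinases, had 7 peaks summing to 4141 with DOP and 1 peak of 1971 without, and the peaks near Mmp9 were all nearest to another gene. At Tgfb3, 2 of 4 peaks with DOP and 1 of 2 without were nearest to the gene itself. All the higher genes had more peaks with DOP than without. At Timp2, Timp3, Tgfb3 and Bgn the highest peak stood at a lower percentile with DOP, and at Mmp9 at a slightly higher one (23.1 and 22.0). Bgn rested on weak peaks, with sums of 147.1 and 91. P4ha3 and Ppib had fewer peaks with DOP (1 and 2) than without (3 and 6). The modifying enzyme Glt25d2 had a peak of score 65 in the untreated list only.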

How the data were processed

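H3K9ac ChIP-seq peaks of STHdh Q111 cells were analysed from 2 lists, 1 per condition. The study's methods name Bowtie 2 and the submitters' processing notes BWA 0.7.10 for alignment to mm9, and peaks were called by the authors with GPS, which the list headers call GEM. The study reports fewer peaks for each condition than these lists hold, so they are not the published peak sets, and the reason is not given. The deposited score of each peak has no stated definition, unit or normalization. The sources used here do not give the calling threshold, the use of the IgG control or the way in which the 2 samples per condition were combined. Peaks are 200 bp wide, except 1 untreated peak, and all lie within the chromosomes of NCBIM37. Scores started at 23 with DOP and 21 without, with medians of 418.7 and 399.8.

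Transcript starts, exons and UTRs were those of GENCODE vM1. Peaks were assigned by centre within 10 kb of any start, and peaks overlapping by at least 1 bp were shared. Scores were summed per gene, and log2 ratios were centred on the median of all genes. The limit was 1.5-fold. Motifs were searched in 250 upstream bases of the NCBIM37 assembly. Python 3.11.15, numpy 2.4.6, pandas 2.3.3 and matplotlib 3.10.9 were used.

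The collagen genes, gene lists and comparisons were chosen with earlier results of these data known. Named in full were the 6 genes with the highest single-peak percentile, those with peaks in 1 list, the head-to-head pairs, and the 4 largest increases and decreases of the ratio. For the other pathway genes the 3 highest-ranked of each list were named. The list-specific peaks at Col6a1 and Col12a1 and the other genes named were taken up after their values were seen. Alternatives were other windows, starts, score limits, overlaps and ratios. Replicate samples, depth and IgG were not analysed here. The sequence of 1 region is not reported here.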

Additional observations from a re-analysis of the deposited data

How the results depend on the processing

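No paired analysis was possible because the lists give 1 call for each condition, without replicate columns, and for the same reason no replicate could be left out. Of 71 alternatives, 50 stayed within 1.5 times the count or within the interval of the median, and 21 did not. A window of 1 kb left 30 DOP-treated and 26 untreated peaks, 1 untreated-only gene, 5 genes with more peaks and 1 with fewer. A window of 2 kb left 31 and 28 peaks and 2 untreated-only genes, and windows of 5 kb and peaks nearest to the gene alone also gave 2. Scores of at least 100 left 4 DOP-only and 1 untreated-only peaks. The top-scoring part of each list, split at its median, left peaks at 15 and 14 genes, 24 and 24 peaks, and 1 DOP-only gene, Col23a1. A lower fold limit called 3 genes higher (Col1a2, Col5a3, Col27a1) and 1 lower (Col3a1), and the highest score of a gene called 1 higher and 1 lower. Of the genes called higher at the lower limit, Col1a2 and Col27a1 had an additional DOP-only peak in the sum. The cause of these changes was not tested. Depth and the definition of the score are unknown, so the score at which a peak would be missed in either list is not known.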

Other observations

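Among all peaks, 29561 of 34286 with DOP and 28989 of 33355 without lay within 10 kb of a start. Beyond 10 kb from any start, the bodies of the collagen genes held few peaks. The number in the bodies of all genes was not counted, so whether this is particular to collagen genes is not known. Each list held 3 peaks in these parts of collagen genes, at Col4a2, Col8a1 and Col23a1 with DOP and at Col24a1, Col5a1 and Col8a1 without. None overlapped a peak of the other list. The highest, in Col5a1, stood at percentile 15.2 of the untreated list, and the others at or below 5.59. The genes of these peaks span 130480 bp (Col8a1) to 293999 bp (Col23a1).

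The 17 collagen genes with no peak near a start were often far from any. Col28a1, at 16863 and 16836 bp, and Col20a1, at 18457 and 18929 bp from the closest DOP-treated and untreated centre, were the nearest to a peak. Both were well outside the window of 10 kb. Col11a1, a major chain of cartilage fibrils, lay 400059 and 400094 bp from the closest centre, and Col22a1 lay 776483 bp from a DOP-treated but 194903 bp from an untreated one.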
